A study of Mus musculus with 6 samples.

Results

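The genes described here are caspases, the platform protein Apaf1 and regulators of caspase activity: the initiators Casp2, Casp8 and Casp9 with Apaf1, the executioner Casp6, the inhibitors Xiap and Birc2, and their antagonist Diablo. They were chosen by gene symbol from the annotation of the array's probes, and 6 of the 8 genes had a probe named for them, with 11 probes in all, among 18624 named genes and 34967 gene probes on the array. Expression was measured in mouse embryos at embryonic day 9.5, in tissue dissected from behind the forelimb bud. Samples from 3 Fkbp8 mutants (replicates a, b and c) were set against samples from 3 wildtypes (replicates d, e and f), all from crosses between heterozygous carriers and each hybridized to its own 1-colour CodeLink array. The labels do not describe the mutant allele, the strain or the sex of the embryos. The source label of mutant a is in the plural, so that sample may be a pool, and the array file of mutant c names its sample as null. The labels also do not say whether embryos came from separate litters, so p-values here reflect only how these 6 samples vary.

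Caspases are proteases that wait in the cell as inactive precursors. Signals from a death receptor activate Casp8, whereas cytochrome c released from mitochondria binds Apaf1 and assembles the apoptosome, which activates Casp9. These initiators cleave executioners, which cut cellular proteins such as the nuclear lamins. Xiap binds and blocks caspases, Birc2 (also called cIAP1) is a ubiquitin ligase of the same family that acts mainly at receptor complexes, and Diablo (also called Smac) leaves the mitochondria and displaces such inhibitors from caspases. Fkbp8 encodes a protein of the outer mitochondrial membrane that binds BCL2, and the title of the series names cell death in the posterior neural tube as a subject of the study. Caspase activity is set largely by cleavage and by release of these proteins, which an RNA measurement does not report.

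No caspase, inhibitor or antagonist probe differed between mutants and wildtypes past the threshold. Of the 11 probes, 7 (for 5 genes) were bright enough to be tested, and 0 of the 7 passed an adjusted p of 0.05 in limma. Across the array 26 of 21688 tested probes passed, or 0.12%, of which 14 were higher in mutants (0.0646%) and 12 lower (0.0553%). At an unadjusted p under 0.05 there was 1 of the 7 probes, that of Diablo, against 12.2% of all tested probes. The mutant and wildtype values did not overlap for 3 of the 7, which were Diablo (lower in mutants) and 1 probe each of Birc2 and Casp6 (higher in mutants), against 19.7% of all tested probes. With 7 probes these counts describe the set and carry no test of their own. The log2 fold changes, given throughout as mutant over wildtype, ran from -0.23 to 0.19 and had a median of 0.06, against 0.01 over all tested probes. Their standard errors were 0.07 to 0.10. No 95% confidence interval reached beyond a log2 fold change of 0.41 in size, or 1.33-fold, and the smallest change among the 26 probes that passed was 0.54. That bound holds for the main processing, which adds an offset that understates changes of dim probes. With background subtracted without the offset, the dim probes Birc2 GE111611 and Casp6 GE128013 had -0.175 (SE 0.17) and 0.138 (SE 0.14).

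**Figure D1:**
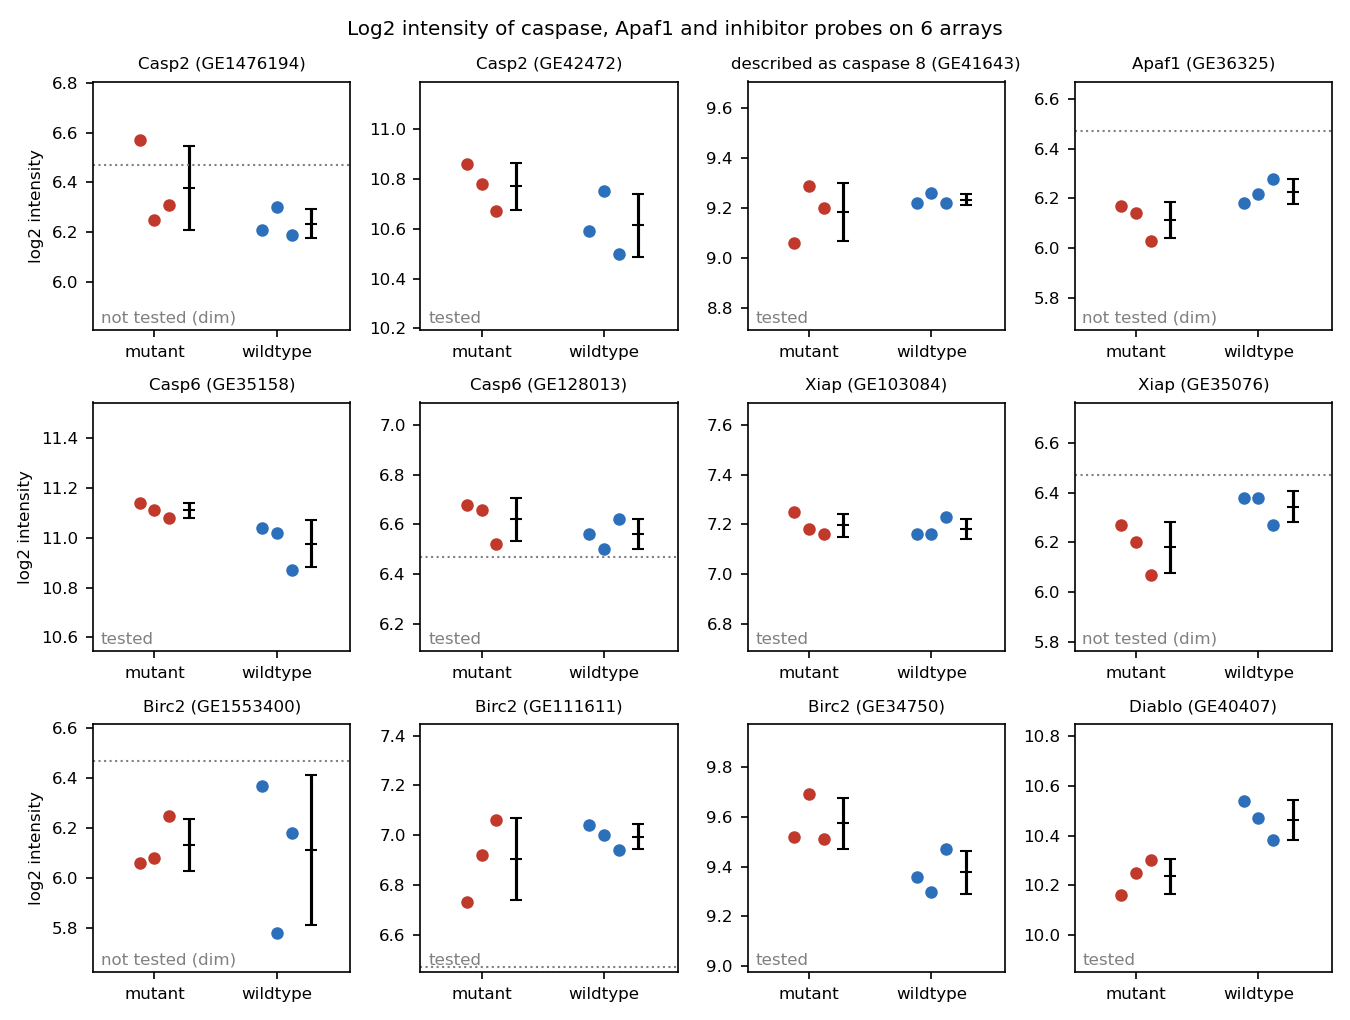
Log2 intensity of the 11 caspase, Apaf1 and inhibitor probes and of the probe described as caspase 8, with 1 point per array, mutants in red on the left and wildtypes in blue on the right of each panel. Black bars are the mean and SD (n = 3 each), every panel spans 1 log2 unit, and the dotted line at 6.47 marks the highest of the 6 arrays' lowest signals above background. Among tested probes the groups are apart for Diablo, for Casp6 (GE35158) and for Birc2 (GE34750), and the probes of Apaf1, Xiap (GE35076) and Birc2 (GE1553400) lie below the dotted line on every array.

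The labels and the tissue were checked first. Fkbp8 itself had log2 intensities of 6.28, 6.30 and 6.11 in mutants a, b and c, against 10.57, 10.74 and 10.67 in wildtypes d, e and f. Its probe was not above background on any mutant array, which makes the signal at least 18.8-fold lower in mutants (limma adjusted p = 1.18e-07). For the labelled posterior tissue, 10 of 10 marker genes (Hox9 group genes, Cdx genes, T and Tbx6 among them) were above background on all 6 arrays. This list was not level between the groups: 9 of its 11 probes were lower in mutants, with a median log2 change of -0.11, against 0.01 over all tested probes. In limma 0 passed, and 3 had an unadjusted p under 0.05, against 12.2% of all tested probes. These were Hoxa9 (log2 change -0.51, SE 0.09) and both Cdx1 probes (-0.51, SE 0.10, and -0.48, SE 0.12). Each was lower in mutants without overlap, as were 8.56% of all tested probes. Their part in the values below was not tested. Of 4 genes listed as markers of the head, Otx2 was above background on 0 arrays, Hesx1 had no usable spot, En2 was above background on the 2 usable mutant and 3 wildtype arrays, and Six3 was bright on all 6 (log2 intensity 10.96, 11.14 and 11.00 in mutants, against 11.01, 10.89 and 10.67 in wildtypes). The head list therefore does not settle whether head tissue was absent. Between 57.6% (mutant c) and 61.8% (wildtype f) of gene probes were above background. In bulk tissue, fewer cells of a type and less RNA per cell cannot be told apart.

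Among the initiators, Casp2 was readily measured. Casp2 is an initiator known for its part in responses to DNA damage and to extra centrosomes. Its brighter probe (GE42472, RefSeq NM_007610) had log2 intensities of 10.86, 10.78 and 10.67 in mutants a, b and c, against 10.59, 10.75 and 10.50 in wildtypes d, e and f. The groups overlap, because wildtype e lies above mutant c. The means were 10.77 ± 0.10 in mutants and 10.61 ± 0.12 in wildtypes (SD, n = 3 each), for a log2 change of 0.15 (SE 0.09, 95% interval -0.05 to 0.36, limma adjusted p = 0.525). On a linear scale the interval runs from 0.963-fold to 1.29-fold. A further Casp2 probe (GE1476194) was above background on mutant a only and was not tested. Its values were 6.57, 6.25 and 6.31 in mutants and 6.21, 6.30 and 6.19 in wildtypes.

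Casp8 and Casp9 could not be followed by name. No probe carried the symbol of either gene in the annotation used here. One probe (GE41643) was made to a thymus clone that the array file describes as encoding caspase 8, but the platform annotation assigns that clone to Gm20257, a transcribed pseudogene with 3 genes between it and Casp8 in the gene order of their chromosome. It is therefore given apart and not counted among the 11 probes. It had log2 intensities of 9.06, 9.29 and 9.20 in mutants and 9.22, 9.26 and 9.22 in wildtypes. The mutant values lie on both sides of the narrow wildtype range. The log2 fold change was -0.05 (SE 0.08, 95% interval -0.24 to 0.13, limma adjusted p = 0.83).

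Apaf1, the scaffold of the apoptosome, was not well above background on any of the 6 arrays. The mean of its spot (GE36325, NM_009684) was 1.12 to 1.39 times the local background median. The log2 intensities were 6.17, 6.14 and 6.03 in mutants and 6.18, 6.22 and 6.28 in wildtypes, below the lowest signal that counted as above background on each array (6.37 to 6.47). Values at that level bear no fold change, and the probe was not tested. It was the only probe of the gene, so these arrays give no measure of a change in Apaf1.

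The executioner Casp6 gave the brightest signals of the set at its probe GE35158 (NM_009811), 36.2 to 46.5 times the local background. Casp6 is the executioner known for cleaving lamin A and for its part in axon pruning. This probe had log2 intensities of 11.14, 11.11 and 11.08 in mutants and 11.04, 11.02 and 10.87 in wildtypes. Every mutant lies above every wildtype, by a gap that is smaller than the range within wildtypes. The means were 11.11 ± 0.03 in mutants and 10.98 ± 0.09 in wildtypes (SD, n = 3 each), and the difference of 0.13 (SE 0.08, 95% interval -0.04 to 0.31) did not pass (limma adjusted p = 0.52). Permuting the 6 array values exactly gave a two-sided p of 0.1, which is as low as 3 against 3 arrays can go. Probes whose groups do not overlap with mutants higher made up 11.2% of all tested probes.

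The other Casp6 probe (GE128013, made to an expressed sequence tag) was dim, and exceeded background on 2 mutant and 3 wildtype arrays. Its values were 6.68, 6.66 and 6.52 in mutants and 6.56, 6.50 and 6.62 in wildtypes, which overlap, with a log2 change of 0.06 (SE 0.08, limma adjusted p = 0.807). Taken within each array, the brighter probe relative to the dimmer one stood at 0.04, 0.03 and 0.15 in mutants and at 0.06, 0.10 and -0.16 in wildtypes on the log2 scale, counted from the wildtype mean. The groups overlap in this measure, too.

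The inhibitor Xiap showed no difference that could be detected. Xiap is the family member known for direct binding to executioner caspases and to Casp9. Its measured probe (GE103084, AK003723) had log2 intensities of 7.25, 7.18 and 7.16 in mutants and 7.16, 7.16 and 7.23 in wildtypes. Both groups cover nearly the same range. The log2 fold change was 0.01 (SE 0.07, limma adjusted p = 0.964), and the 95% interval of -0.15 to 0.18 corresponds to 0.899-fold to 1.13-fold. Of all tested probes, 93.2% had a larger change in size.

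Xiap lies on the X chromosome, and the arrays differed in sex-linked RNA. Uty, Ddx3y and Eif2s3y, which lie on the Y chromosome, exceeded background on all 3 mutant arrays and on 0 wildtype arrays. The probe of Kdm5d, also on the Y chromosome, exceeded it on all 6, with 8.21, 8.38 and 8.25 in mutants against 7.73, 7.57 and 7.64 in wildtypes (log2 change 0.63, SE 0.08, limma adjusted p = 0.0403). The X-inactivation RNA Xist did so, at its measured probe, on 0 mutant arrays and all 3 wildtype arrays (at least 3.25-fold lower in mutants, limma adjusted p = 0.000107). Genotype and sex-linked expression cannot be told apart in these samples, for Xiap and for the other genes described. The RefSeq probe of Xiap itself (GE35076, NM_009688) was not well above background on any array. It had 6.27, 6.20 and 6.07 in mutants and 6.38, 6.38 and 6.27 in wildtypes and was not tested.

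Birc2 was measured by 3 probes, and the 2 that were tested differed in sign. Birc2 is the ubiquitin ligase that modifies RIPK1 at the tumour necrosis factor receptor. Its RefSeq probe (GE34750, NM_007465) had log2 intensities of 9.52, 9.69 and 9.51 in mutants and 9.36, 9.30 and 9.47 in wildtypes. Each mutant lies above each wildtype, the nearest pair being mutant c and wildtype f. The means were 9.57 ± 0.10 in mutants and 9.38 ± 0.09 in wildtypes (SD, n = 3 each), and the log2 fold change was 0.19 (SE 0.09, 1.14-fold, 95% interval 0.998-fold to 1.31-fold). It did not pass (limma unadjusted p = 0.0529, adjusted p = 0.414), and 18.8% of tested probes had a larger change in size.

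The dimmer Birc2 probe (GE111611, AK021182), which was above background on all 6 arrays at 2.03 to 2.45 times the local background, had 6.73, 6.92 and 7.06 in mutants and 7.04, 7.00 and 6.94 in wildtypes. Mutant a is low and mutant c high among the 6. The log2 fold change was -0.09 (SE 0.10, limma adjusted p = 0.742). Relative to this probe within each array, the RefSeq probe stood at 0.40, 0.38 and 0.06 in mutants and at -0.07, -0.08 and 0.15 in wildtypes, counted from the wildtype mean on the log2 scale. The groups overlap there, because mutant c falls below wildtype f. The remaining Birc2 probe (GE1553400) was not well above background on any array.

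Diablo, the mitochondrial antagonist of these inhibitors, was lower in every mutant than in every wildtype, without passing the test. Its probe (GE40407, BF139872) had log2 intensities of 10.16, 10.25 and 10.30 in mutants and 10.54, 10.47 and 10.38 in wildtypes. The gap between the nearest arrays, mutant c and wildtype f, is narrower than the range within either group. The means were 10.24 ± 0.07 in mutants and 10.47 ± 0.08 in wildtypes (SD, n = 3 each). The log2 fold change was -0.23 (SE 0.08), or 0.854-fold, with a 95% interval from 0.752-fold to 0.969-fold. It had the smallest p among the 7 probes (limma unadjusted p = 0.0202, adjusted p = 0.329), at rank 1332 of the 21688 tested probes, and 13.1% of tested probes had a larger change in size. The exact two-sided permutation p was 0.1, the smallest possible, and 8.56% of all tested probes had mutants below wildtypes without overlap.

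**Figure D2:**
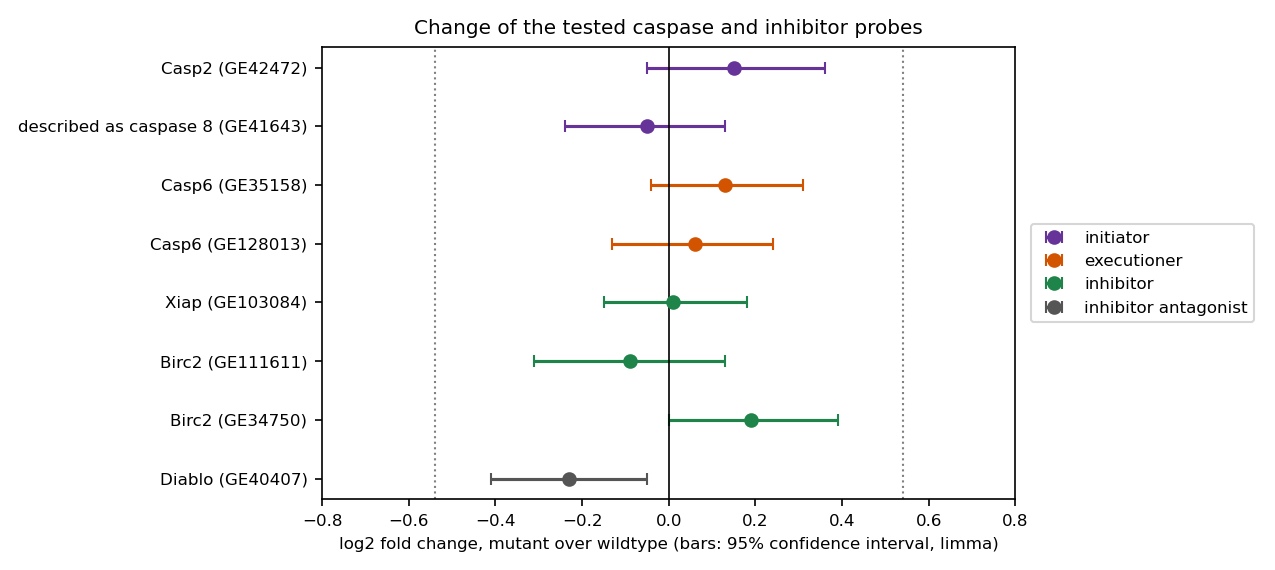
Log2 fold change, mutant over wildtype, of the 7 tested probes and of the probe described as caspase 8, coloured by role, with bars for the 95% confidence interval from limma. The dotted lines lie at 0.54 on either side of 0, the smallest change among the 26 probes that passed on the array. Every interval lies inside those lines, and that of Diablo (-0.41 to -0.05) is the one that does not include 0 before adjustment.

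Because Diablo acts on the inhibitors, its change was also set against theirs within each array, a comparison chosen after the values were seen. Relative to Xiap (GE103084), Diablo stood at -0.38, -0.21 and -0.14 in mutants a, b and c and at 0.11, 0.03 and -0.13 in wildtypes d, e and f on the log2 scale, counted from the wildtype mean. Mutant c and wildtype f nearly meet. Relative to the RefSeq probe of Birc2 it stood at -0.45, -0.52 and -0.29 in mutants and at 0.10, 0.08 and -0.18 in wildtypes, a mean difference of -0.42. Relative to the dimmer Birc2 probe the mean difference was -0.14, with mutant a (-0.05) next to wildtype f (-0.03). These differences share the Diablo values and are given without a test.

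The genes whose profile over the 6 arrays was most like that of Diablo, by the root mean square difference of log2 values centred on each probe's mean, were Naa35 (0.029), St7 (0.030) and Nasp (0.032), out of 14759 named probes. Their log2 fold changes were -0.22, -0.20 and -0.25, and none passed (limma adjusted p = 0.393, 0.381 and 0.274). For the RefSeq probe of Birc2 they were Uhrf1bp1 (0.018), Rbm33 (0.023) and Ppat (0.026), with log2 fold changes of 0.19, 0.19 and 0.18 (limma adjusted p = 0.417, 0.431 and 0.398). The profiles keep the difference between the groups. Fold changes close to those of Diablo and Birc2 therefore follow from how these genes were chosen.

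Of 4 further caspase genes described, 2 were tested and 0 passed in limma (0 also at unadjusted p under 0.05), with a median log2 change of 0.06. Casp12 (0.05, SE 0.08) and Casp14 (0.06, SE 0.11), caspases linked to the endoplasmic reticulum and to skin, had limma adjusted p-values of 0.814 and 0.858. The inflammatory caspases Casp1 and Casp4 were too dim to be tested.

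In the list named apoptosome and mitochondrial release, 0 of 10 tested probes passed in limma, with 3 at an unadjusted p under 0.05. Bak1, a pore former of the outer mitochondrial membrane, had 8.72, 8.66 and 9.11 in mutants and 8.45, 8.44 and 8.34 in wildtypes. The groups do not overlap, and its log2 change of 0.42 (SE 0.12) had the smallest limma p of the list (adjusted p = 0.264). Mcl1, an anti-apoptotic BCL2 relative, had a log2 change of -0.23 (SE 0.08, limma adjusted p = 0.324). Acin1, a chromatin condensation factor, had 0.25 (SE 0.11, limma adjusted p = 0.395) at 1 probe, but 0.02 (SE 0.12) at its other, also bright probe. Aifm1, a mitochondrial flavoprotein, had -0.19 (SE 0.12, limma adjusted p = 0.548), and -0.09 without mutant b or without wildtype f. Cycs, which encodes cytochrome c, was not above background at the probe that carries its name.

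Of the death receptor and adaptor genes, 0 of 12 tested probes passed in limma, with 2 at an unadjusted p under 0.05. Pidd1, the partner that assembles Casp2 in the PIDDosome, had 8.31, 8.42 and 8.38 in mutants and 8.13, 8.17 and 8.14 in wildtypes. All mutants lie above all wildtypes at this probe (log2 fold change 0.22, SE 0.07, limma adjusted p = 0.299), while its other probe had 0.01 (SE 0.09). Cflar, a decoy relative of Casp8, had a log2 change of 0.23 (SE 0.09, limma adjusted p = 0.355). Ripk1, the kinase of receptor complexes, had 0.23 (SE 0.10, limma adjusted p = 0.418), but 0.74 on the deposited normalized values and 0.13 without wildtype f. Its probe was near background (1.30 to 1.83 times). It was above background on 3 mutant arrays and 1 wildtype array, so it was tested mainly through the group where it is high. Casp8ap2, a Casp8-binding nuclear protein, had 8.91, 7.93 and 8.70 in mutants and 8.99, 9.01 and 8.90 in wildtypes, so that mutant b stands apart (log2 fold change -0.45, SE 0.21, limma adjusted p = 0.438). Without mutant b the log2 change was -0.16 (SE 0.09).

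Among other genes of the inhibitor of apoptosis family and its regulators, 0 of 13 tested probes passed in limma, with 3 at an unadjusted p under 0.05. Birc6, a giant ubiquitin-conjugating family member, had the widest change, with 8.18, 8.01 and 8.88 in mutants and 8.96, 8.99 and 8.98 in wildtypes. Mutants a and b are low and mutant c lies near the wildtypes, which differ by little among themselves. The log2 fold change was -0.62 (SE 0.19, limma adjusted p = 0.288), and it was -0.88 (SE 0.09, limma adjusted p = 0.0195) without mutant c. A further Birc6 probe was above background on 2 mutant and 0 wildtype arrays and was not tested. Its values were 6.61, 6.50 and 6.55 in mutants and 6.43, 6.35 and 6.14 in wildtypes. They are not lower in mutants, but are too dim to be set against the brighter probe. Xaf1, an Xiap-binding protein, had 0.32 (SE 0.11, limma adjusted p = 0.331) at 1 of its 3 tested probes and 0.16 and 0.00 at the others; on the deposited normalized values the first was at 0.70. Birc3, the close relative of Birc2, had 0.22 (SE 0.08, limma adjusted p = 0.344) at 1 probe, and -0.08 and 0.01 at the others. Naip5, a sensor of bacterial flagellin, had -0.28 (SE 0.14, limma adjusted p = 0.475), and -0.12 without wildtype f.

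Of the caspase substrates and the caspase-activated nuclease, 0 of 12 tested probes passed in limma, with 4 at an unadjusted p under 0.05. Dffb, the nuclease that cuts DNA between nucleosomes, had a log2 change of -0.25 (SE 0.10, limma adjusted p = 0.363). The cytoskeletal substrate Gas2 had -0.26 (SE 0.08, limma adjusted p = 0.29) and the kinase Stk4 had -0.35 (SE 0.11, limma adjusted p = 0.299). Lmnb1, a nuclear lamin, had 12.07, 11.78 and 11.61 in mutants and 11.37, 11.53 and 11.51 in wildtypes, without overlap (log2 fold change 0.35, SE 0.12, limma adjusted p = 0.319). Over these 5 lists, 12 of 49 tested probes (24.5%) had an unadjusted p under 0.05, against 12.2% of all tested probes, and 14 (28.6%) did not overlap between groups, against 19.7%. Their median log2 fold change was 0.02, and the changes went in both directions.

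**Figure D3:**
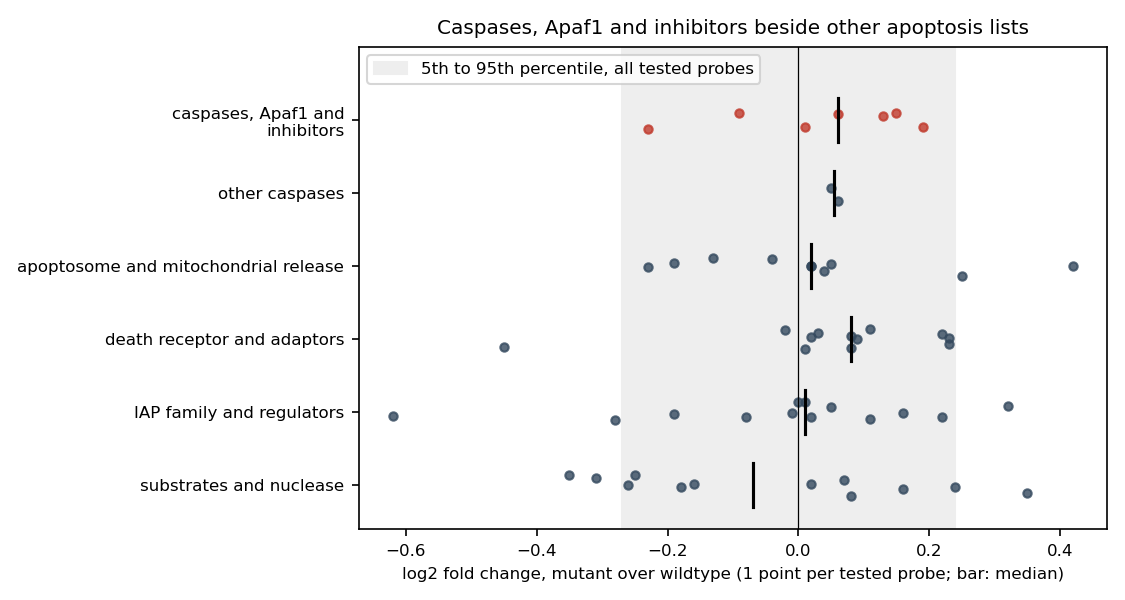
Log2 fold change, mutant over wildtype, of each tested probe of the caspases, Apaf1 and inhibitors (red) and of 5 lists of other apoptosis genes (dark grey), with a black bar at each median. The light band spans the 5th to 95th percentile of all tested probes (-0.27 to 0.24). All 7 red points lie inside the band, and the points farthest outside it are Birc6 (-0.62), Casp8ap2 (-0.45) and Bak1 (0.42).

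Markers of other cell types were compared as well. The summed normalized intensity of 8 markers of differentiating neurons, in multiples of each array's median, was 9.98 to 12.8 in mutants and 6.71 to 8.52 in wildtypes. Of 7 tested probes, 1 passed (Nhlh2, log2 change 0.72, SE 0.10, limma adjusted p = 0.0456), and it was above background on the 3 mutant arrays and on 0 wildtype arrays, so that it was tested through the group where it is high. Neurod4 had 0.80 (SE 0.12, limma adjusted p = 0.0821), Elavl4 0.27, Elavl3 0.24 and Tubb3 0.15, each without overlap. Nhlh1 had 0.06 and Stmn2 -0.01, and Dcx was too dim to be tested. Of the 7 neuronal probes, 6 were higher in mutants, with a median of 0.24. The groups did not overlap for 5, against 19.7% of all tested probes, and 4 had an unadjusted p under 0.05, against 12.2%. Of 11 tested probes of erythroid markers, 0 passed the limma threshold. Before adjustment 3 had a p under 0.05, against 12.2% of all tested probes. The groups did not overlap for 2 (Alas2 and Rhag), against 19.7%. The log2 changes of the 11 probes ran from 0.00, at Hba-x and 1 probe of Hbb-bh1, to 0.49 at Slc4a1. The median was 0.29, against 0.01 over all tested probes. The sums, which cover 10 of the 11 probes, were 1230 to 1320 in mutants and 996 to 1270 in wildtypes and overlapped. The part of either cell type in the values of Diablo, Birc2 and Casp6 was not tested, apart from a fit with the erythroid mean as a covariate, in which Diablo had a log2 change of -0.26 (SE 0.08), Birc2 (GE34750) one of 0.20 (SE 0.10) and Casp6 (GE35158) one of 0.10, smaller than the 0.13 without it. None of these passed in that fit (limma adjusted p = 0.475, 0.594 and 0.732). Mutant a had no usable spot for the bright Hbb-y probe, which had 14.78 and 14.51 in mutants b and c. The erythroid mean of mutant a (11.118) leaves that probe out, whereas those of mutants b and c (11.463 and 11.2) include it. The covariate is therefore too low for mutant a relative to the other arrays, and the fit cannot show the part of erythroid cells. Of 8 macrophage markers, 5 (Csf1r, Ptprc, Adgre1, Mrc1 and Aif1) were above background on 0 of 6 arrays, and the sums were 6.32 to 7.51 in mutants and 6.65 to 7.78 in wildtypes. Endothelial sums were 39.0 to 44.2 in mutants and 35.1 to 41.7 in wildtypes. Of 5 tested endothelial probes, 3 were higher in mutants and 2 lower, and 0 passed in limma. The groups did not overlap for Kdr (log2 change 0.25, SE 0.09) and Tie1 (0.18), against 19.7% of all tested probes. Surface ectoderm sums were 33.8 to 39.0 in mutants and 37.2 to 38.0 in wildtypes. Of 5 tested probes of that list, 1 was higher and 4 lower, and 0 passed. Tfap2c had -0.78 (SE 0.22, limma adjusted p = 0.264) without overlap, and was above background on 1 mutant and 3 wildtype arrays.

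**Figure D4:**
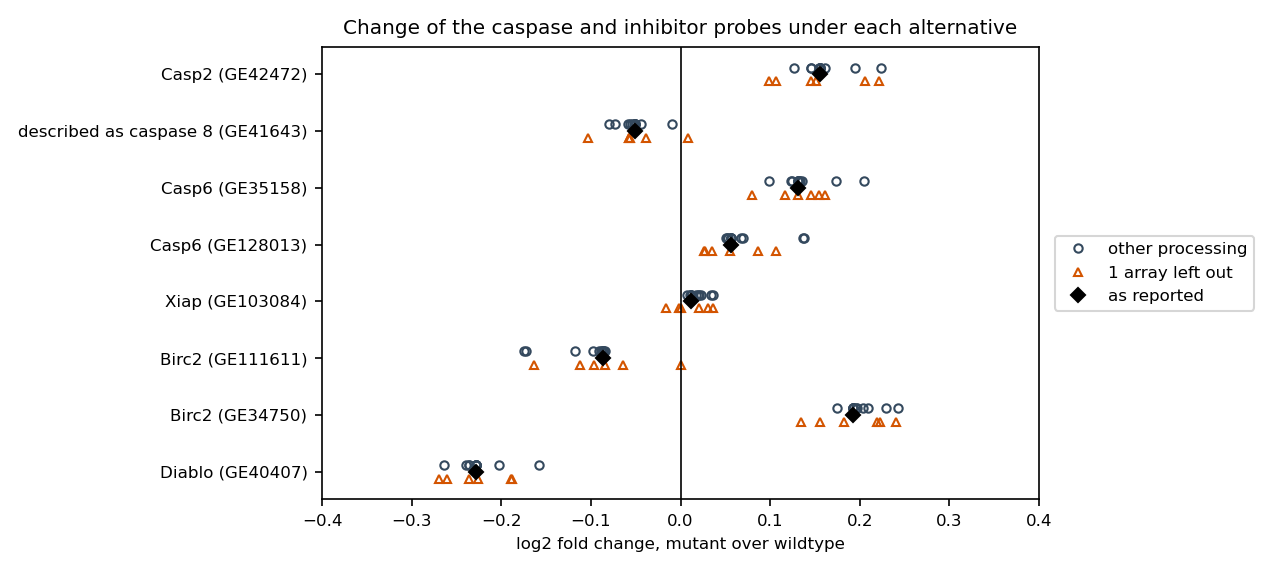
Log2 fold change, mutant over wildtype, of the 7 tested probes and of the probe described as caspase 8 as reported (black diamonds), under other processing (open circles) and with 1 array left out (orange triangles). Diablo stays between -0.27 and -0.16 and Birc2 (GE34750) between 0.13 and 0.24, while Xiap, the dimmer Birc2 probe and the probe described as caspase 8 reach or cross 0.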

How the data were processed

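Total RNA was hybridized to 1-colour CodeLink arrays, 1 per slide. Spots were quantified with CodeLink Expression Analysis, per the file headers. The deposited intensity values hold spot mean and local background median, and the deposited normalized intensity is their difference divided by 1 factor per array (the deposited series table is identical, median 1, linear).

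Here, normexp background correction (offset 50) was run over all spots of an array. Spots marked contaminated, irregular or masked were left out, and log2 values were quantile-normalized. Probes above background (scanner flag good or saturated) on at least 3 of 6 arrays, with 2 usable spots per group, were tested with limma 3.58.1 in R 4.3.3 (lmFit and eBayes, two-sided, Benjamini-Hochberg over 21688 probes). The fit was tested on simulated data with planted changes larger than any measured for the caspase, inhibitor and antagonist probes. That test does not show the power to detect changes of their size. The offset understates changes of dim probes, and the number of arrays limits the precision.

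Probes were named from the platform annotation, updated through Entrez IDs to RefSeq (GRCm38.p6), or else by RefSeq accession or the array file's symbol: 22463 had 1 symbol, 204 several and 12300 none. Array coordinates are not given, since no source used here names the build of the design. Besides the 8 genes, the text names Fkbp8, sex-linked genes and, from each of 5 apoptosis lists, the 4 genes with the smallest p. Some list genes are not reported here and enter no list count. The genes and lists were chosen with earlier results of these data known. Each slide held 1 array, so no slide block could be fitted.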

Additional observations from a re-analysis of the deposited data

How the results depend on the processing

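Across 18 alternatives (142 values of the 7 probes and of the probe described as caspase 8), 0 passed in limma, with a smallest adjusted p of 0.264 (Diablo, probes above background on all arrays). Nor did any pass at an adjusted p under 0.1. Diablo, Casp2, Casp6 and Birc2 (GE34750) kept their direction in each, but without wildtype f Casp2 was at 0.0991 and Casp6 GE35158 at 0.08, and Casp6 GE35158 was at 0.205 with median centring. The dim probes Casp6 GE128013 (0.0261 to 0.138) and Birc2 GE111611 (-0.175 with floored values) moved by over 1.5 times. So did, among the named list genes, Acin1 without mutant b (0.157), Lmnb1 without mutant a (0.22), Naip5 without wildtype e (-0.415) or with the erythroid covariate (-0.159), Aifm1 with median centring (-0.127) or that covariate (-0.0787), Birc3 with floored values (0.328), Stk4 on the deposited table (-0.533), and Casp12, which ranged from 0.0168 to 0.101. With 1 array left out, Xiap ranged from -0.016 to 0.036 (below 0 also without wildtype d, -0.00187), Birc2 GE111611 from -0.164 to 0.000567 and the probe described as caspase 8 from -0.103 to 0.00852, each turning its sign without mutant a. Casp14 ranged from -0.0165 to 0.172 (below 0 without mutant b) and was at -0.00489 with the erythroid covariate. The erythroid covariate leaves out Hbb-y on mutant a, which makes it too low there, and all values given with it carry this limit. The count of probes past the threshold over the array, 26, was 16 with median centring, 13 with floored values, 15 with the deposited table, 16 with the filter on all arrays, 14 without X and Y genes and 11 with the erythroid covariate, which was added after seeing the data. With 1 array left out it ranged from 11 (without mutant b, wildtype d or wildtype f; 14 without wildtype e) to 37 (without mutant a). The count over the 5 apoptosis lists was 0 to 1 with 1 array left out, the 1 being Birc6 without mutant c. Causes were not tested. No paired analysis was possible because the labels give the groups no shared replicate numbers. A leading number in the array files is shared by mutant a with wildtype d only, without explanation, and this 1 pair is too few for a block. In the main processing the intervals of the 7 probes include changes of up to 1.33-fold, a bound that the offset makes too narrow for the dim probes. Signal over background limits Apaf1 and the dim probes.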
